A study of Homo sapiens with 36 samples.

Results

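A list of 33 genes that are switched on directly in the transcriptional response to DNA damage and related stress was followed through 36 poly-A RNA sequencing libraries of human cancer cell lines. The members were found by symbol, and all 33 were among the 26475 genes of the count table. They fall into 6 genes of intrinsic apoptosis, 5 death receptors and relatives, 5 genes of DNA repair and nucleotide supply, 8 genes of growth arrest and signalling, and 9 genes of redox control, mitochondria and secretion.

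The libraries form 4 experiments of 9, each with 3 libraries for each of 3 groups. The lines were WiDr, from a colorectal adenocarcinoma, PANC-1, from a carcinoma of the pancreas, and MDA-MB-468, a breast cancer line of basal type. In each line, cells carrying targeting hairpin 1 or targeting hairpin 2 in the pGIPZ vector were set against cells carrying a non-silencing hairpin in the same vector. In WiDr, cells with targeting guide RNA 1 or 2 were also set against cells with a non-target guide RNA. Every line was grown in the same serum-supplemented medium, and no drug or damaging treatment is named in the labels for any group. Whether the cells were pools or clones, and how long they carried a construct, is not given in the sources used here. In PANC-1 the label hairpin 2 went against a check of the libraries that is not reported here, so these are called libraries labelled hairpin 2, and a change with both in PANC-1 is not taken as support from independent constructs. Each group has 3 biological replicates per the design text, and p-values measure the spread between these libraries. The title and the genotype field disagree on the guide number in 4 of the 6 targeting guide libraries, which were grouped by title.

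Cells answer DNA damage by switching on a set of genes that stop the cell cycle, repair the lesion or kill the cell. The apoptotic arm runs through BBC3 and PMAIP1, which neutralise BCL2-type survival proteins, BAX, which opens the mitochondrial outer membrane, and APAF1, which assembles caspases on released cytochrome c. FAS and the TNFRSF10 receptors pass death signals from outside the cell, while DDB2 and XPC recognise damaged bases for excision repair. Several members also answer other stresses: SESN2 and GDF15, for example, are also induced through ATF4 when amino acids are scarce or proteins misfold.

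Library totals ran from 28371119 to 49237321 counts, and the members together took 0.163% to 0.281% of the counts of a library. Most line markers followed the labels in the controls, and 3 did not. The basal keratins KRT5, KRT14 and KRT6B averaged 1570, 172 and 121 CPM (counts scaled to library size) in MDA-MB-468 and were at or near 0 in the other lines. VIM, a mesenchymal filament, averaged 4070 CPM in PANC-1, and the intestinal genes KRT20, LGALS4, VIL1 and CEACAM5 stood at 54.8 CPM or more in both WiDr controls and at 3.29 CPM or less in the other lines. Against the labels, GABRP of the basal breast list averaged 28.2 CPM in MDA-MB-468 and 51.2 and 113 CPM in the WiDr controls, KRT7 of the PANC-1 list averaged 7.59 CPM in PANC-1 and 1260 CPM in MDA-MB-468, and the intestinal factor CDX2 was higher in PANC-1 (10.8 CPM) than in WiDr (2.96 and 1.58 CPM). The leukocyte genes PTPRC and CD3E were at or near 0 in the controls. The endothelial gene PECAM1 averaged 2.67 CPM in MDA-MB-468 and 0.182 CPM or less in the other control groups. The fibroblast gene PDGFRB averaged 1.57 CPM in PANC-1 and 0.201 CPM or less in the others. Ribosomal RNA genes took 0.838% to 2.6% of counts with hairpin 1 and 1.22% to 1.80% in the libraries labelled hairpin 2 in PANC-1, against 4.61% to 9.60% in controls. In WiDr they took 1.27% to 2.56% with hairpin 1 and 5.38% to 10.2% with hairpin 2, against 1.59% to 2.71% in controls.

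Libraries also differed in how their levels tracked transcript length. The slope of each library's log2 deviation on log2 transcript length was -0.15, 0.07 and 0.07 with PANC-1 hairpin 1 and 0.06, 0.05 and 0.10 in the libraries labelled hairpin 2, against 0.13, -0.17 and -0.16 in the controls. A positive slope means that long transcripts stood higher than the experiment's average. In MDA-MB-468 the slopes ran from -0.14 to 0.13 over the hairpin libraries and from -0.18 to 0.12 over the controls. In WiDr they ran from -0.12 to 0.07 with hairpins and from -0.03 to 0.02 in their controls, and from -0.09 to 0.05 with guides and from 0.02 to 0.05 in theirs. Each result was therefore also computed with this slope as a covariate, a setting chosen after seeing the data; the slope comes from the same counts as the tests.

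The starts of 5 members are shown because these genes carry the main contrasts below: SESN2 rose with both constructs in 3 experiments, GDF15 and PLK2 changed most in PANC-1, and BTG2 and AEN changed in opposite directions in different experiments. The guide 2 calls of SESN2 and AEN, and PANC-1 calls of BTG2 and AEN, were lost without single libraries, as given below. The 250 bases before each annotated start are given 5′ to 3′ on the gene's strand (RefSeq, GRCh38.p14). Gene spans elsewhere are from GENCODE, whose outermost starts differ, so that the GDF15 window lies inside its GENCODE span and those of BTG2, PLK2 and AEN run into theirs. Capitals mark the box CCAAT, the box GGGCGG and the box TATAAA on either strand, and these matches did not overlap.
SESN2 (chr1:28259268-28259517, plus strand): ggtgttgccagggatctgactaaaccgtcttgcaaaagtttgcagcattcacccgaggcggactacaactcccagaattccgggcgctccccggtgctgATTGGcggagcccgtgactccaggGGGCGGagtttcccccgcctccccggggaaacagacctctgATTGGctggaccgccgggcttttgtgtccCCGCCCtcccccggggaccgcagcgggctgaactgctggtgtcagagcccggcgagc
GDF15 (chr19:18385908-18386157, plus strand): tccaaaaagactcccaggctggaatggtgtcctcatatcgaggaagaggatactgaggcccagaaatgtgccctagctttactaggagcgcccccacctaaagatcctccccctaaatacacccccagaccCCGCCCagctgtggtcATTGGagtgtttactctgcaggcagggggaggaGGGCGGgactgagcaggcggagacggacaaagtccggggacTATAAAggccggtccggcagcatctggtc
BTG2 (chr1:203305269-203305518, plus strand): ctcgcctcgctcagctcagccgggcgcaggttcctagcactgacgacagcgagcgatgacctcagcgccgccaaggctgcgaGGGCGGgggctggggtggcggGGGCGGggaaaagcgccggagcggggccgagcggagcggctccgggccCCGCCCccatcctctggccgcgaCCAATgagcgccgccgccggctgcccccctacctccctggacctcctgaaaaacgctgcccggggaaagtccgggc
PLK2 (chr5:58460087-58460336, minus strand): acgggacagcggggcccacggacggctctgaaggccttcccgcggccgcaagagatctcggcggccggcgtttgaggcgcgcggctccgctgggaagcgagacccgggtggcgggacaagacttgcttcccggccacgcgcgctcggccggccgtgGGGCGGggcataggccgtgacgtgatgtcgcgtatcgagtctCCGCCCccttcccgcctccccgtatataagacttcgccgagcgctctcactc
AEN (chr15:88621090-88621339, plus strand): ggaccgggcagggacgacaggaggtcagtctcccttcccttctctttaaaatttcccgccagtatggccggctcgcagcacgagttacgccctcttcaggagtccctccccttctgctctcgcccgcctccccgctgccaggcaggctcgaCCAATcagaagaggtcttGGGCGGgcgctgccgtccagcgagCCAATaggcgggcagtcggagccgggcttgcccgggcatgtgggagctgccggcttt
Of the 33 members, 26 matched the promoter table by symbol and were searched, and TNFRSF10A, TNFRSF10B, TNFRSF10C, RRM2B, TP53INP1, GADD45A and PHLDA3 were not. CCAAT, the box bound by the NF-Y factor, lay in 12 of the 26 windows, against 33% of all 27305 windows of that length. GGGCGG, a box bound by SP1-type factors, lay in 22 of the 26, against 42.3% of all windows. TATAAA lay in 1 of the 26, that of GDF15, at 29 bases before the start (position -29), against 11.1% of all windows. The CREB-type motif TGACGTCA was found in 1 member window (PPM1D; 1.77% of all windows) and the ATF4-type motif TGATGNAA in 1 (PLK3; 3.19% of all windows). TGANTCA was found in 3 (BBC3, FAS and PERP; 6.60% of all windows) and CACGTG in 2 (BAX and BBC3; 6.49% of all windows), each searched on both strands. A match is a description of the letters and not a bound site. The windows of all genes were not matched to the members by gene type, so these shares do not measure enrichment.

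The members started from very different levels in the 4 control groups. With all 36 libraries scaled together, GDF15, which encodes a secreted cytokine that signals to the brainstem, averaged 0.199 ± 0.0968 CPM in MDA-MB-468, 38.4 ± 4.59 in PANC-1, 302 ± 24.6 in WiDr with the non-silencing hairpin and 474 ± 27.5 in WiDr with the non-target guide (SD, n = 3 each). In MDA-MB-468 this was 4 to 11 counts per control library. BTG2, an antiproliferative partner of the mRNA deadenylase complex, followed the same order at 1.76 ± 0.190, 2.25 ± 0.198, 17.0 ± 1.01 and 36.9 ± 1.76 CPM. The 2 lowest groups met at their edges, with 1.97 CPM in the highest MDA-MB-468 control and 2.03 CPM in the lowest PANC-1 control, and the WiDr groups stood apart from them. SESN2, a leucine-responsive brake on mTORC1, averaged 16.6 ± 0.867 CPM in MDA-MB-468 and 16.0 ± 1.42 CPM in PANC-1, whose libraries overlapped, against 75.5 ± 1.51 and 79.4 ± 2.38 CPM in the WiDr controls.

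Other members had another order. PHLDA3, which competes with AKT for membrane lipids, was highest in MDA-MB-468 at 53.0 ± 9.94 CPM, against 4.08 ± 0.564 CPM in PANC-1, 13.9 ± 1.44 CPM in WiDr with the hairpin and 9.43 ± 1.09 CPM with the guide. GADD45A, a small protein that binds PCNA and stress kinases, averaged 96.1 ± 19.4 CPM in MDA-MB-468 and 95.6 ± 20.4 CPM in PANC-1, against 24.4 ± 0.400 and 29.4 ± 0.874 CPM in WiDr. FAS, the receptor for FAS ligand, was low everywhere, from 0.655 ± 0.343 CPM in MDA-MB-468 to 4.29 ± 0.555 CPM in PANC-1. Per kilobase of exon, the highest control level of a member was that of GDF15 in WiDr with the guide control, 395 CPM per kb, and PLK2 in WiDr with the hairpin control reached 295 CPM per kb. EDA2R, the ectodysplasin A2 receptor, and SPATA18, a mitochondrial quality-control gene, were too low to test in every experiment. TNFRSF10C, a decoy receptor, was tested with guides only, and GDF15 was too low to test in MDA-MB-468, which left 29 members tested in every experiment.

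**Figure D1:**
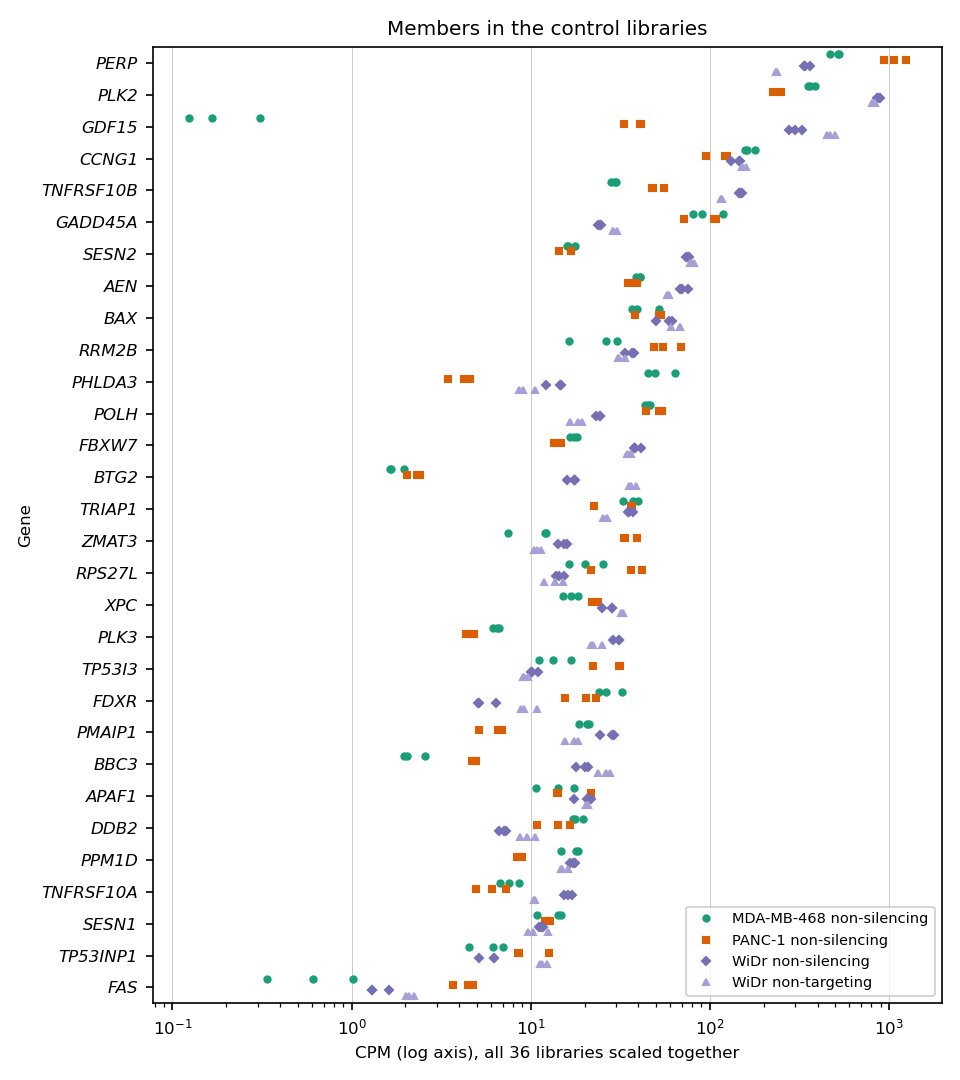
Levels of the 30 members other than EDA2R, SPATA18 and TNFRSF10C (CPM on a log axis, all 36 libraries scaled together), with 1 point per library and 3 libraries per control group, ordered by the highest group mean. GDF15 spans the widest range, from 0.199 CPM on average in MDA-MB-468 to 474 CPM in WiDr with the non-target guide, while the means of SESN1 lie between 10.8 and 13.2 CPM in the 4 control groups.

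Each construct was tested against its own control with edgeR's quasi-likelihood test across all genes, and a gene passed at a Benjamini-Hochberg adjusted p under 0.05. A shared change is one that passed, in the same direction, with each construct of an experiment. By this rule 16 members rose in at least 1 experiment, 7 fell in at least 1, and 4 of these did both in different experiments. These 4, BTG2, GADD45A, AEN and TRIAP1, had their shared fall in PANC-1, where the 2 sets of libraries are not taken as independent constructs. The remaining 14 were shared in none. The share of all genes with a shared rise or fall in at least 1 experiment was not computed. These counts therefore describe the list only, and shares for each experiment are given below. SESN2 was the member that rose in most experiments, namely in PANC-1 and in both WiDr experiments. APAF1 and GDF15 rose in WiDr with hairpins and in PANC-1, while PERP and TP53I3 rose in both WiDr experiments. The 14 members with no shared change were BAX, PMAIP1, TNFRSF10B, TNFRSF10C, EDA2R, POLH, RRM2B, CCNG1, PPM1D, FBXW7, ZMAT3, FDXR, SPATA18 and RPS27L. In bulk RNA, fewer cells with a transcript and less of it per cell cannot be told apart.

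**Figure D2:**
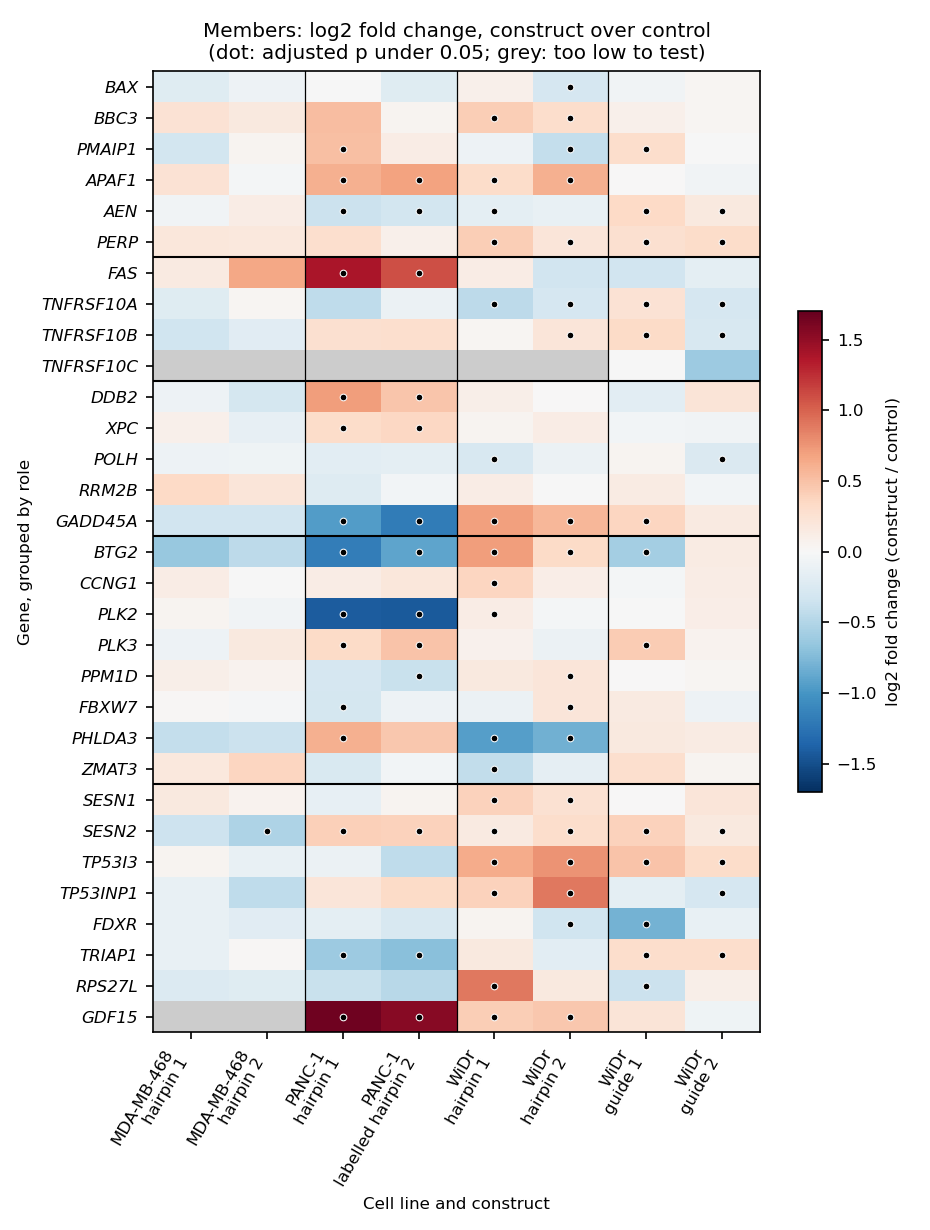
Log2 fold change (construct over control, color scale) of the 31 members tested in at least 1 experiment, in rows by role, for the 8 constructs in columns; a dot marks an adjusted p under 0.05 and grey a gene too low to test. GDF15 and FAS in PANC-1 are the darkest rises (1.65 and 1.39 with hairpin 1), PLK2 in PANC-1 is the darkest fall (-1.42), and MDA-MB-468 has 1 dot, for SESN2.

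The largest fold changes of tested members were those in PANC-1. GDF15, FAS, DDB2, APAF1, XPC, PLK3 and SESN2 were higher in both sets of hairpin libraries than with the non-silencing hairpin, and PLK2, GADD45A, BTG2, TRIAP1 and AEN were lower. In numbers, 7 of the 30 members tested rose with both, where 12.7% of all tested genes did, and 5 fell with both, where 11.1% of all tested genes did. With hairpin 1, 9 members rose (16.2% of all genes) and 6 fell (14.0% of all genes). In the libraries labelled hairpin 2, 7 rose (16.7% of all genes) and 6 fell (16.7% of all genes). The median member changed by -0.06 and 0.00 on the log2 scale, against -0.02 and 0.00 over all genes, so that rises and falls were balanced.

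GDF15 (chr19:18374731-18389176, GRCh38, plus strand) stood at 139, 113 and 102 CPM in the hairpin 1 libraries and at 123, 114 and 92.8 CPM in the libraries labelled hairpin 2, against 32.6, 40.4 and 40.0 CPM in the controls. Every hairpin library was above every control. The log2 fold change was 1.65 (SE 0.154, adjusted p = 7.68e-05) with hairpin 1 and 1.55 (SE 0.153, adjusted p = 1e-04) in the libraries labelled hairpin 2. FAS had 11.6, 9.97 and 11.6 CPM with hairpin 1 and 8.69, 7.92 and 10.2 CPM in the libraries labelled hairpin 2, against 3.62, 4.63 and 4.37 CPM in the controls. The hairpin and control libraries did not overlap. FAS rose by 1.39 (SE 0.139, adjusted p = 0.000114) and 1.09 (SE 0.139, adjusted p = 0.000461) on the log2 scale. The other death receptors tested, TNFRSF10A and TNFRSF10B, did not pass; TNFRSF10B had log2 fold changes of 0.27 and 0.28 with adjusted p of 0.0673 and 0.0502.

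PLK2, a polo-like kinase of centriole duplication, was the member that fell most. It had 86.9, 85.5 and 87.0 CPM with hairpin 1 and 83.4, 86.7 and 88.8 CPM in the libraries labelled hairpin 2, against 224, 243 and 228 CPM in the controls. Replicates were close together and the hairpin libraries far from the controls, with log2 fold changes of -1.42 and -1.43 (SE 0.0726 each, adjusted p = 3.17e-06 and 3.3e-06). GADD45A (chr1:67685061-67688338, GRCh38, plus strand) had 59.0, 43.7 and 43.4 CPM with hairpin 1 and 42.6, 42.0 and 39.1 CPM in the libraries labelled hairpin 2, against 71.1, 104 and 107 CPM in the controls. The first control and the first hairpin 1 library stood between the other values, but no hairpin library reached a control. GADD45A fell by 0.95 (SE 0.172, adjusted p = 0.00333) and by 1.19 (SE 0.173, adjusted p = 0.000999) on the log2 scale.

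BTG2 was low in PANC-1, with 0.816, 1.26 and 0.879 CPM with hairpin 1 and 0.884, 1.30 and 1.38 CPM in the libraries labelled hairpin 2, against 2.00, 2.27 and 2.36 CPM in the controls. No hairpin library reached a control, and the log2 fold changes were -1.17 (SE 0.228, adjusted p = 0.00478) and -0.90 (SE 0.225, adjusted p = 0.0143). AEN, a nuclease of apoptotic DNA and RNA breakdown, had 27.6, 27.3 and 30.6 CPM with hairpin 1 and 30.4, 29.9 and 27.9 CPM in the libraries labelled hairpin 2, against 38.6, 36.6 and 34.4 CPM in the controls. It fell by a small amount, 0.36 and 0.31 on the log2 scale (SE 0.0861 each, adjusted p = 0.0127 and 0.021), and no hairpin library reached a control. TRIAP1, a mitochondrial lipid-transfer partner that restrains apoptosis, had 25.7, 16.4 and 18.7 CPM with hairpin 1 and 18.8, 20.1 and 18.3 CPM in the libraries labelled hairpin 2, against 22.4, 35.9 and 35.5 CPM in the controls. Here the first hairpin 1 library lay above the first control, and the log2 fold changes were -0.62 (SE 0.205, adjusted p = 0.046) and -0.71 (SE 0.206, adjusted p = 0.0265). These 3 calls depended on single libraries: BTG2 had -0.74 (adjusted p = 0.052) without replicate 1 labelled hairpin 2, and AEN had -0.33 (adjusted p = 0.0555) without hairpin 1 replicate 2 and -0.29 to -0.33 labelled hairpin 2 (adjusted p = 0.0523 to 0.0652) without control replicate 2 or replicate 2 or 3 labelled hairpin 2. TRIAP1 lost its call without control replicate 2 or 3, hairpin 1 replicate 2 or 3, or any 1 library labelled hairpin 2, with log2 fold changes from -0.50 to -0.76 and adjusted p from 0.0647 to 0.156.

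The remaining shared rises in PANC-1 were smaller. The damage-recognition genes DDB2 and XPC rose by 0.71 and 0.31 with hairpin 1 and by 0.47 and 0.35 in the libraries labelled hairpin 2 on the log2 scale. DDB2 had 22.4, 22.3 and 21.9 CPM with hairpin 1 and 18.1, 19.0 and 19.5 CPM in the libraries labelled hairpin 2, against 10.7, 13.9 and 16.2 CPM in the controls, with no overlap. APAF1 rose by 0.60 and 0.68, PLK3, a stress-activated polo-like kinase, by 0.32 and 0.49, and SESN2 by 0.40 and 0.39. APAF1 overlapped, since its lowest hairpin 1 library and its highest control both read 21.5 CPM. PMAIP1 and PHLDA3 rose with hairpin 1 alone (0.51 and 0.60), FBXW7, which marks cyclin E for degradation, fell with hairpin 1 alone (-0.30), and PPM1D, a phosphatase that ends the damage signal, fell in the libraries labelled hairpin 2 alone (-0.38). No member differed between the libraries labelled hairpin 2 and the hairpin 1 libraries, where 0.106% of all genes did (edgeR; 5 members had an unadjusted p under 0.05, and DESeq2 also called 0).

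**Figure D3:**
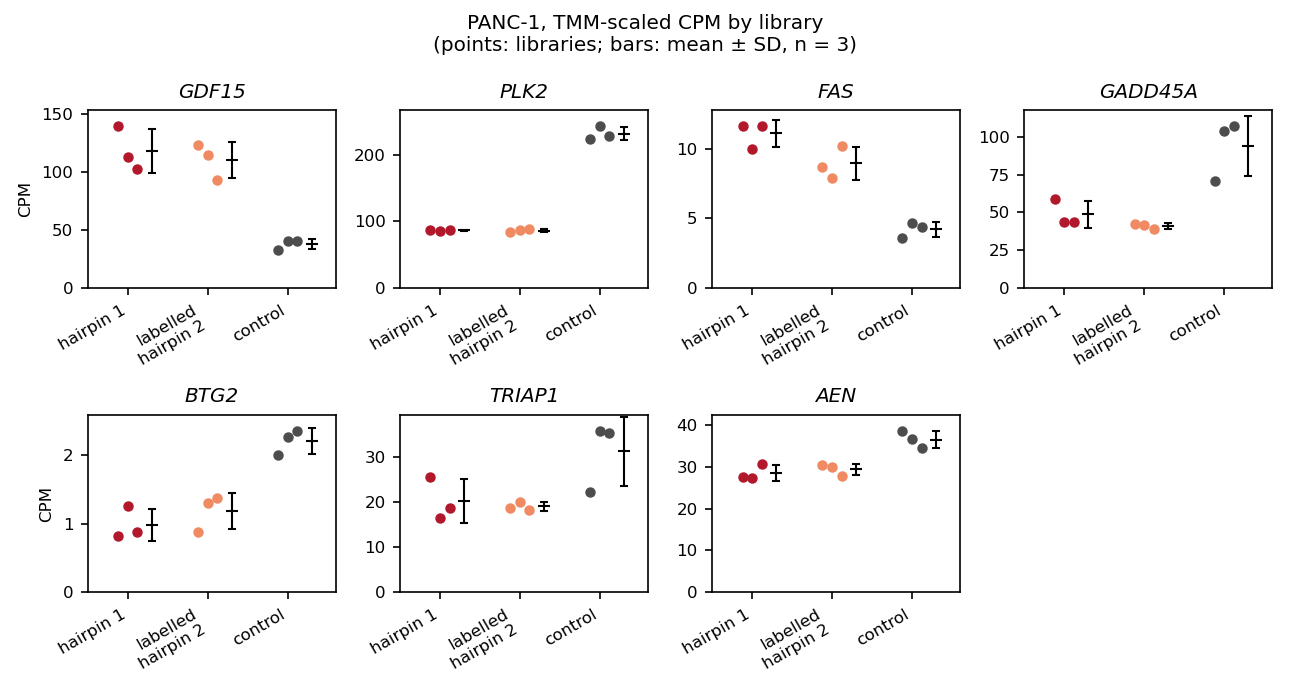
TMM-scaled CPM of 7 members in PANC-1, with 1 point per library and the mean ± SD of 3 libraries beside it, for hairpin 1, the libraries labelled hairpin 2 and the non-silencing control. GDF15 and FAS are higher in every hairpin library than in every control, PLK2, GADD45A, BTG2 and AEN are lower in every one, and TRIAP1 overlaps between hairpin 1 and the control.

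Leaving out single libraries left 3 to 8 members rising with both (3 without replicate 2 of hairpin 1 or labelled hairpin 2, 4 without control replicate 2 or 3 or replicate 1 labelled hairpin 2) and 3 to 6 falling (3 without control replicate 2, hairpin 1 replicate 2 or any 1 of the libraries labelled hairpin 2). With the length slope as a covariate 11 members rose with both (21.3% of all genes) and 8 fell (22.9% of all genes), all 12 of the original calls among them, and with each construct fitted alone with its control 3 rose and 3 fell. For the fit of each construct alone no share of all genes was computed.

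In WiDr with hairpins, members rose more often than they fell. The pro-apoptotic genes BBC3, APAF1 and PERP, the sestrins SESN1 and SESN2, TP53I3, TP53INP1, GDF15, GADD45A and BTG2 rose with both hairpins, while PHLDA3 and TNFRSF10A, a TRAIL death receptor, fell with both. That is 10 of 30 members up with both hairpins, where 12.3% of all genes were, and 2 down, where 12.9% of all genes were. With hairpin 1, 13 members rose (24.1% of all genes) and 5 fell (23.9% of all genes). With hairpin 2, 13 also rose (22.2% of all genes) and 5 fell (22.5% of all genes). The median member changed by 0.13 with hairpin 1 and 0.12 with hairpin 2, against 0.00 and -0.01 over all genes.

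By role, 5 of 8 tested genes of redox control, mitochondria and secretion rose with both hairpins and 0 fell, and 3 of 6 genes of intrinsic apoptosis rose and 0 fell. The other 3 genes of intrinsic apoptosis, AEN, BAX and PMAIP1, and FDXR of the redox group fell with 1 hairpin each. At an unadjusted p under 0.05 (edgeR), AEN fell with both hairpins and 0 genes of the redox group did. Of 8 genes of arrest and signalling 1 rose and 1 fell, of 5 genes of DNA repair 1 rose and 0 fell, and of 3 tested death receptors 0 rose and 1 fell, beside 12.3% of all genes rising and 12.9% falling; these groups are too small to read a share from. TP53I3, a quinone oxidoreductase that raises reactive oxygen, had 17.0, 15.6 and 14.8 CPM with hairpin 1 and 18.3, 17.7 and 15.6 CPM with hairpin 2, against 9.79, 10.8 and 9.94 CPM in the controls. All 6 hairpin libraries lay above the controls, with log2 fold changes of 0.63 (SE 0.0860, adjusted p = 1.94e-05) and 0.76 (SE 0.0851, adjusted p = 3.35e-06). GDF15 had 429, 385 and 374 CPM with hairpin 1 and 400, 427 and 390 CPM with hairpin 2, against 273, 320 and 292 CPM in the controls. Its hairpin libraries overlapped each other and all lay above the controls. GDF15 rose by 0.42 (SE 0.0657, adjusted p = 7e-05) and 0.46 (SE 0.0656, adjusted p = 4.29e-05) on the log2 scale.

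TP53INP1, a nuclear stress protein that also promotes autophagy, had 7.55, 7.84 and 7.2 CPM with hairpin 1 and 12.1, 10.7 and 9.42 CPM with hairpin 2, against 6.11, 5.02 and 6.13 CPM in the controls. The 3 groups were separate, with hairpin 2 highest. The log2 fold change was 0.39 (SE 0.114, adjusted p = 0.0102) with hairpin 1 and 0.90 (SE 0.110, adjusted p = 8.23e-06) with hairpin 2, and the hairpins differed by 0.51 (adjusted p = 0.00129). Without control replicate 2 the hairpin 1 rise was 0.29 with an adjusted p of 0.0682. BTG2 had 27.8, 26.7 and 27.2 CPM with hairpin 1 and 22.7, 20.7 and 19.4 CPM with hairpin 2, against 15.5, 17.3 and 17.1 CPM in the controls. Again the 3 groups were separate, here with hairpin 1 highest, and the log2 fold changes were 0.71 (SE 0.0733, adjusted p = 1.14e-06) and 0.33 (SE 0.0742, adjusted p = 0.00185).

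GADD45A had 45.1, 35.0 and 35.8 CPM with hairpin 1 and 34.5, 36 and 34.4 CPM with hairpin 2, against 23.9, 23.4 and 24.1 CPM in the controls. No hairpin library came near a control, and the gene rose by 0.70 (SE 0.0834, adjusted p = 5.56e-06) and 0.56 (SE 0.0835, adjusted p = 6.36e-05) on the log2 scale. PHLDA3 (chr1:201464383-201469237, GRCh38, minus strand) had 7.95, 7.2 and 6.27 CPM with hairpin 1 and 7.29, 7.82 and 7.89 CPM with hairpin 2, against 11.9, 14.5 and 14.3 CPM in the controls. It was the member that fell most here, by 0.93 (SE 0.104, adjusted p = 2.44e-06) and 0.82 (SE 0.102, adjusted p = 9.97e-06) on the log2 scale, and no hairpin library reached a control. TNFRSF10A fell by 0.45 with hairpin 1 and 0.29 with hairpin 2 on the log2 scale.

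The other shared rises were of 0.42 and 0.20 for PERP, a tetraspan protein of desmosomes, 0.42 and 0.30 for BBC3, 0.31 and 0.61 for APAF1, 0.39 and 0.26 for SESN1, and 0.15 and 0.30 for SESN2, each with hairpin 1 and then hairpin 2 on the log2 scale. A further 12 members passed with 1 hairpin. With hairpin 1 alone, RPS27L, a paralog of the ribosomal protein gene RPS27, rose by 0.89, CCNG1, a cyclin that binds PP2A, by 0.36 and PLK2 by 0.13, and ZMAT3, an RNA-binding zinc finger protein, fell by 0.42, POLH, the polymerase that copies past ultraviolet lesions, by 0.27 and AEN by 0.16. With hairpin 2 alone, TNFRSF10B rose by 0.20, PPM1D by 0.21 and FBXW7 by 0.20, and PMAIP1 fell by 0.40, FDXR, which feeds electrons to mitochondrial ferredoxins, by 0.34 and BAX by 0.29. Between the hairpins 15 of 30 members differed, 6 higher and 9 lower with hairpin 2, where 42.4% of all genes differed. RPS27L showed the largest of these, at 14.4, 17.9 and 14.8 CPM with hairpin 2 against 30.3, 24.7 and 23.9 CPM with hairpin 1 (log2 difference -0.73, adjusted p = 4.09e-05). Whether counting kept reads of RPS27L apart from RPS27, and those of the TNFRSF10 receptors apart from each other, is not given in the sources used here, so these values are less certain.

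**Figure D4:**
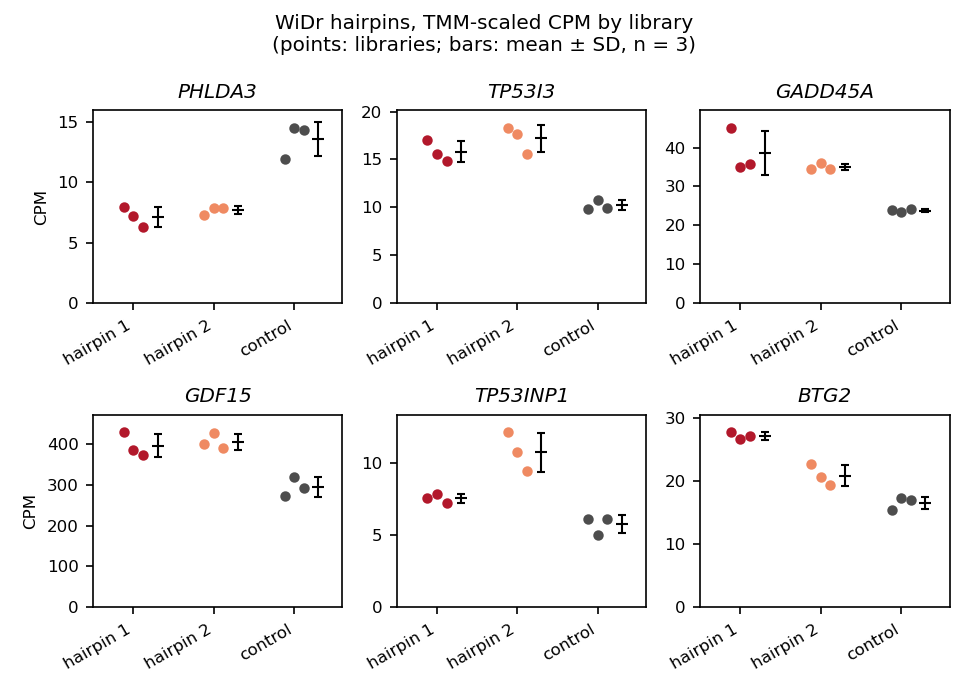
TMM-scaled CPM of 6 members in WiDr with hairpins, with 1 point per library and the mean ± SD of 3 libraries beside it, for hairpin 1, hairpin 2 and the non-silencing control. PHLDA3 is lower in every hairpin library than in every control, the other 5 are higher in every one, TP53INP1 is highest with hairpin 2 and BTG2 with hairpin 1.

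Without control replicate 3 or hairpin 2 replicate 2, 1 member fell with both hairpins, and without control replicate 3, 8 rose. With the length slope as a covariate 12 members rose with both hairpins (14.7% of all genes), the original 10 with CCNG1 and RPS27L, and 3 fell (13.0% of all genes), while with all 36 libraries in 1 fit 5 rose, 1 fell and 7 differed between the hairpins. For the fit of all 36 libraries no share of all genes was computed.

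With guides in WiDr, 5 members rose with both guides and none fell with both. The 5 were PERP, SESN2, TP53I3, TRIAP1 and AEN, of 31 tested, where 8.48% of all genes rose with both and 6.26% of all genes fell with both (edgeR; 0 members fell with both at an unadjusted p under 0.05, and DESeq2 also called 0). With guide 1, 10 members rose (21.4% of all genes) and 3 fell (20.3% of all genes). With guide 2, 5 rose (14.1% of all genes) and 4 fell (11.3% of all genes). The median member changed by 0.08 with guide 1 and 0.03 with guide 2, against 0.00 and 0.02 over all genes.

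PERP had 270, 293 and 282 CPM with guide 1 and 285, 296 and 289 CPM with guide 2, against 235, 234 and 233 CPM in the controls. The guide 1 and guide 2 libraries overlapped and all lay above the controls, with log2 fold changes of 0.27 and 0.31 (SE 0.0459 each, adjusted p = 0.000176 and 0.000145). TRIAP1 had 30.6, 30.1 and 35.3 CPM with guide 1 and 29.5, 33.8 and 32.8 CPM with guide 2, against 26.3, 26.6 and 25.0 CPM in the controls. Its guide 1 and guide 2 libraries also overlapped and all lay above the controls. TRIAP1 rose by 0.30 with each guide on the log2 scale (adjusted p = 0.00343 and 0.00658).

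SESN2 had 103, 105 and 102 CPM with guide 1 and 87.3, 85.2 and 91.7 CPM with guide 2, against 77.0, 77.9 and 81.0 CPM in the controls. The 3 groups were separate, with guide 1 highest, and the log2 fold changes were 0.39 (SE 0.0489, adjusted p = 6.74e-06) and 0.16 (SE 0.0491, adjusted p = 0.0218). AEN had 75.4, 71.9 and 71.9 CPM with guide 1 and 64.2, 61.4 and 69.4 CPM with guide 2, against 57.9, 57.2 and 58.6 CPM in the controls, and rose by 0.34 (adjusted p = 0.000112) and 0.17 (adjusted p = 0.034) on the log2 scale. It likewise had 3 separate groups in the same order. TP53I3 had 11.6, 13.8 and 13.2 CPM with guide 1 and 11, 11 and 12.2 CPM with guide 2, against 9.59, 8.98 and 9.01 CPM in the controls. Guide libraries lay above the controls but overlapped each other, and TP53I3 rose by 0.49 (SE 0.0875, adjusted p = 0.000257) and 0.31 (SE 0.0886, adjusted p = 0.018) on the log2 scale. The guide 2 calls of these 3 genes were lost without control replicate 2 or guide 2 replicate 3, and those of AEN and SESN2 also without control replicate 1 or guide 1 replicate 2, with adjusted p up to 0.135 (AEN, 0.10 without guide 2 replicate 3). Control replicate 3 likewise ended the guide 2 calls of TP53I3 (0.29, adjusted p = 0.0659) and AEN (0.18, adjusted p = 0.0755).

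The TRAIL receptor genes TNFRSF10A and TNFRSF10B moved in opposite directions with the 2 guides. TNFRSF10B had 142, 143 and 145 CPM with guide 1, above all controls, and 99.6, 94.6 and 92.9 CPM with guide 2, below them, against 115, 117 and 113 CPM in the controls. The log2 fold changes were 0.32 (SE 0.0466, adjusted p = 3.64e-05) and -0.27 (SE 0.0470, adjusted p = 0.000679). TNFRSF10A had 11.5, 13.1 and 12.5 CPM with guide 1 and 9.35, 7.79 and 8.42 CPM with guide 2, against 10.5, 10.3 and 10.4 CPM in the controls. Its guide libraries lay on either side of the controls, with log2 fold changes of 0.25 (adjusted p = 0.0259) and -0.29 (adjusted p = 0.0264). Guide 2 against guide 1 gave -0.58 for TNFRSF10B (adjusted p = 6.21e-08) and -0.54 for TNFRSF10A (adjusted p = 0.000137). Without any 1 control library neither TNFRSF10A call against the control held (adjusted p from 0.0619 to 0.0729), nor did the guide 1 call without guide 1 replicate 2 (0.19, adjusted p = 0.16) or 3, or the guide 2 call without guide 2 replicate 2 (-0.23, adjusted p = 0.101). In all, 16 of 31 members differed between the guides, 5 higher and 11 lower with guide 2, where 34.4% of all genes differed.

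A further 8 members passed with 1 guide. BTG2 had 25.1, 23.3 and 25.1 CPM with guide 1 and 39.5, 39.0 and 42.5 CPM with guide 2, against 35.1, 36.1 and 38.3 CPM in the controls. Guide 1 libraries lay far below the others, and the fold change passed with guide 1 (log2 -0.58, adjusted p = 1.64e-06) and not with guide 2 (0.14, adjusted p = 0.0936). FDXR fell with guide 1 by 0.81 and RPS27L by 0.37 on the log2 scale, while GADD45A rose by 0.36, PLK3 by 0.43 and PMAIP1 by 0.30. With guide 2 alone, POLH fell by 0.24 and TP53INP1 by 0.28. GDF15, which stood at 509, 539 and 588 CPM with guide 1 and 430, 397 and 515 CPM with guide 2, against 464, 448 and 498 CPM in the controls, did not pass with either, and its groups overlapped between guide 2 and the controls.

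**Figure D5:**
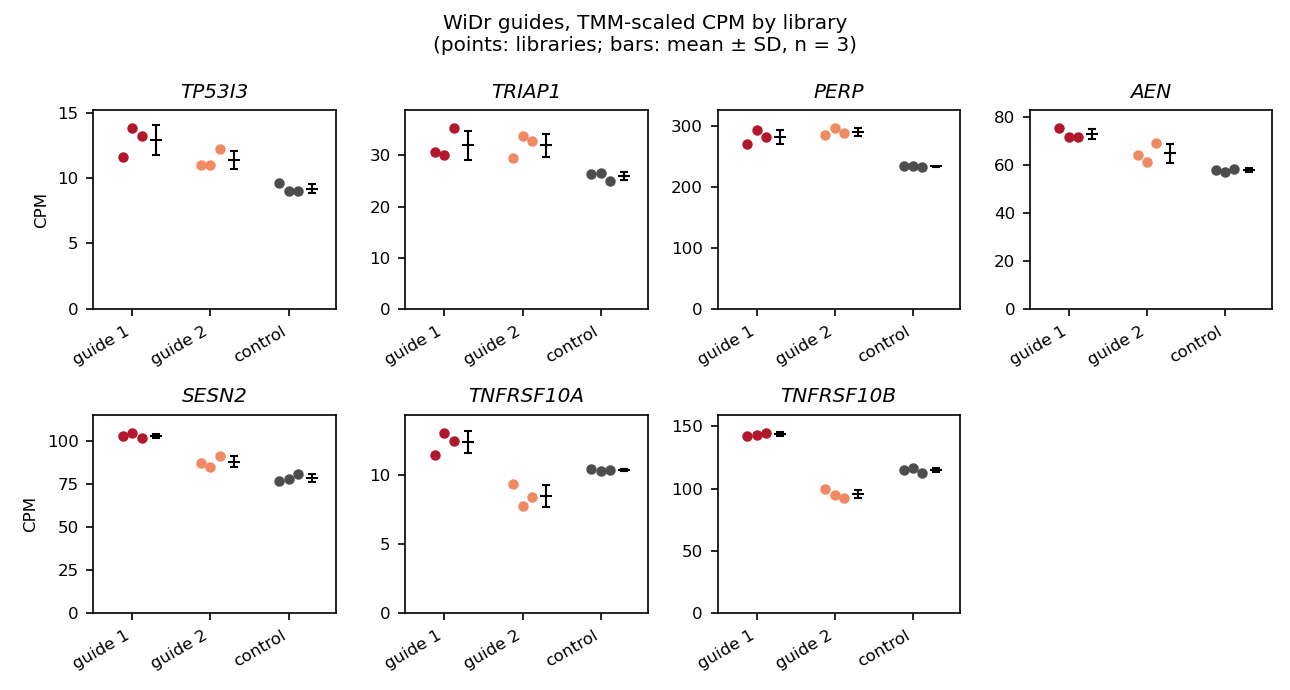
TMM-scaled CPM of 7 members in WiDr with guides, with 1 point per library and the mean ± SD of 3 libraries beside it, for guide 1, guide 2 and the non-target control. TP53I3, TRIAP1, PERP, AEN and SESN2 are higher in every guide library than in every control, while TNFRSF10A and TNFRSF10B are above the controls with guide 1 and below them with guide 2.

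Grouping the guide libraries by the genotype field instead of the title changed the sign of TNFRSF10A and TNFRSF10B. By their values this grouping left 1 library under guide 2 and put libraries of both titles under guide 1, so no count is given. Which label is right is not known. With the titles, 2 members rose with both guides without control replicate 2 or guide 2 replicate 3 and 3 without control replicate 1 or 3 or guide 1 replicate 2, 3 also did with no filter or with each guide fitted alone, 1 did with all 36 libraries in 1 fit, and with the length slope as a covariate 1 did (PERP; 5.95% of all genes, with 0 members and 3.85% of all genes falling). Of these settings only the length slope has a share of all genes beside it.

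In MDA-MB-468 few members moved. No member rose or fell with both hairpins, where 0.744% of all genes rose with both and 0.567% of all genes fell with both (edgeR). At an unadjusted p under 0.05, 0 rose and 4 fell with both (BTG2, PHLDA3, SESN2 and TNFRSF10B), and DESeq2 called 0 rising and 1 falling. With hairpin 1, 0 members rose (1.24% of all genes) and 0 fell (1.03% of all genes), against 0 and 5 at an unadjusted p under 0.05. With hairpin 2, 0 rose (1.69% of all genes) and 1 fell (1.80% of all genes), against 0 and 5 at an unadjusted p under 0.05. Between the hairpins 0 members differed, where 0.437% of all genes did (2 at an unadjusted p under 0.05, and 0 by DESeq2).

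The member that passed with hairpin 2 was SESN2. It had 14.7, 14.0 and 12.4 CPM with hairpin 1 and 12, 12.2 and 12.3 CPM with hairpin 2, against 17.2, 18.4 and 16.7 CPM in the controls. All 6 hairpin libraries were below the controls, with log2 fold changes of -0.35 (SE 0.0876, adjusted p = 0.0918) and -0.52 (SE 0.0881, adjusted p = 0.0143). TNFRSF10B had 23.8, 24.9 and 23.9 CPM with hairpin 1 and 26.2, 29.8 and 24.7 CPM with hairpin 2, against 30.3, 30.7 and 31.1 CPM in the controls. Its hairpin libraries also lay below the controls, but its log2 fold changes of -0.34 and -0.19 had adjusted p of 0.0848 and 0.318. BTG2 (log2 -0.64 and -0.45) and PHLDA3 (-0.41 and -0.37) did not pass either, with adjusted p from 0.155 to 0.292. The median member changed by -0.08 with hairpin 1 and -0.03 with hairpin 2, against -0.01 and 0.00 over all genes.

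With the length slope as a covariate, GADD45A, PHLDA3, SESN2 and TNFRSF10B fell with both hairpins (5.12% of all genes) and PERP and RRM2B, a ribonucleotide reductase subunit, rose with both (6.72% of all genes). With all 36 libraries in 1 fit 1 member fell with both, a count without a share of all genes beside it. Under the length slope SESN2 had log2 fold changes of -0.36 and -0.52 (adjusted p = 0.00176 and 2.98e-05), close to the values without the covariate.

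Whether effects differed between experiments was tested as the difference of the mean effect of both constructs, in fits of 18 libraries. PANC-1 minus WiDr with hairpins differed for 15 of 30 members, 7 higher and 8 lower, where 37.2% of all genes differed. GADD45A and BTG2 differed most on the low side, by -1.64 (SE 0.170, adjusted p = 1.46e-06) and -1.51 (SE 0.171, adjusted p = 3.89e-06), since both fell in PANC-1 and rose in WiDr. PHLDA3 differed by 1.46, FAS by 1.39 and GDF15 by 1.21 on the high side, and PLK2 by -1.42. For SESN2, which rose in both, the difference of 0.22 did not pass (SE 0.0897, adjusted p = 0.0687).

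The MDA-MB-468 effects differed from those of WiDr hairpins for 8 of 30 members, where 18.2% of all genes differed. One of them, GDF15, entered this fit through its level in WiDr and was too low to test in MDA-MB-468, so no difference is given for it. The others were lower in MDA-MB-468, namely BTG2 (-1.08), GADD45A (-0.96), TP53INP1 (-0.94), RPS27L (-0.76), TP53I3 (-0.75), SESN2 (-0.68, SE 0.0805, adjusted p = 2.58e-05) and TNFRSF10B (-0.40). Against PANC-1, the MDA-MB-468 effects differed for 10 of 30 members, 4 higher and 6 lower, where 23.9% of all genes differed; GDF15 is again among the lower ones through its level in the other line, and no difference is given for it. PLK2 was the highest of these at 1.43 (SE 0.0728, adjusted p = 2.44e-09), and SESN2 differed by -0.81 (SE 0.112, adjusted p = 7.22e-05). With the length slope as a covariate these counts were 14 and 19, and with all 36 libraries in 1 fit the count against PANC-1 was 18. No share of all genes was computed under these settings, so the higher counts are not read as a result about the members.

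Within WiDr, guides minus hairpins differed for 16 of 31 members, 7 higher and 9 lower, where 41.6% of all genes differed. With all 36 libraries in 1 fit 5 members differed, a count without a share of all genes beside it. TNFRSF10C, among the 31 and not passed, was too low to test with hairpins and entered this fit through the guide libraries. PHLDA3 differed by 1.02 (SE 0.129, adjusted p = 1.11e-06), having fallen with both hairpins and passed with neither guide. TP53INP1 differed by -0.87 (SE 0.116, adjusted p = 2.43e-06), BTG2 by -0.74, APAF1 by -0.49 and AEN by 0.39, while the differences for SESN2 (0.05, SE 0.0542, adjusted p = 0.514) and PERP (-0.03, SE 0.0579, adjusted p = 0.753) did not pass. AEN and TRIAP1 fell in PANC-1 and rose with guides in WiDr, and that pair of experiments was not tested against each other. Cell line, construct and the separate controls of each experiment cannot be told apart in these differences.

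Genes of the same and neighbouring pathways were counted in lists that hold no member. Over all genes, 12.7% rose and 11.1% fell with both in PANC-1, and 12.3% rose and 12.9% fell with both WiDr hairpins. With both guides 8.48% rose and 6.26% fell, and with both MDA-MB-468 hairpins 0.744% rose and 0.567% fell. The counts below stand beside these shares. Of 32 other genes of the DNA damage response, 5 rose and 3 fell with both in PANC-1 (30 tested), 3 rose and 9 fell in WiDr with hairpins (31 tested), and 3 rose and 3 fell with guides (32 tested). In MDA-MB-468 TRIM22, an interferon-inducible ubiquitin ligase, was the 1 gene of 30 that passed with both hairpins (0.90 with each). At an unadjusted p under 0.05 with both (edgeR), 4 of these genes rose and 2 fell there. CDKN1A, the cyclin-dependent kinase inhibitor of damage arrest, fell in PANC-1, with 64.9, 62.9 and 62.5 CPM with hairpin 1 and 67.6, 66.3 and 64.9 CPM in the libraries labelled hairpin 2, against 80.6, 91.3 and 94.0 CPM in the controls. In WiDr it had 21.5, 19.4 and 20.4 CPM with hairpin 1 and 23.4, 22.5 and 25.0 CPM with hairpin 2, against 10.8, 12.3 and 13.7 CPM in the controls. It rose there by 0.74 and 0.94 with the hairpins, and by 1.24 and 0.57 with the guides, on the log2 scale. STEAP3, a metalloreductase of the endosome, rose by 1.00 and 1.38 in PANC-1 and fell by 0.60 and 0.47 in WiDr with hairpins and by 0.24 and 0.22 with guides. MDM2, a ubiquitin ligase that limits the damage response, rose in WiDr by 0.28 and 0.18 with the hairpins, and did not pass in PANC-1 (-0.16 and -0.16) or with guides (0.15 and 0.04).

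Among ATF4 and integrated stress response genes, 8 of 20 tested rose and 0 fell with both in PANC-1, 11 of 19 rose and 0 fell with WiDr guides, 5 of 19 rose and 6 fell with WiDr hairpins, and 0 of 20 passed with both in MDA-MB-468. At an unadjusted p under 0.05 with both (edgeR), 1 fell in PANC-1, 0 with guides, and 0 rose and 1 fell in MDA-MB-468. TRIB3, a pseudokinase induced by ATF4, rose by 0.46 and 0.40 in PANC-1 and by 0.66 and 0.35 with guides, and had 0.08 and 0.11 with WiDr hairpins (adjusted p = 0.286 and 0.108). Of the apoptosis machinery, 5 genes rose and 1 fell with both in PANC-1 (20 tested), among them CASP8, the caspase that FAS recruits (0.41 and 0.41), and CYCS, which encodes cytochrome c (-0.97 and -1.10). In WiDr 2 rose and 3 fell with hairpins and 3 rose and 1 fell with guides (20 tested each), and 0 of 22 passed with both in MDA-MB-468 (2 rose at an unadjusted p under 0.05). Of 20 genes of excision repair, translesion synthesis and nucleotide supply, 1 rose and 3 fell in PANC-1, 4 rose and 0 fell with WiDr hairpins, 3 rose and 1 fell with guides, and 0 passed with both in MDA-MB-468 (0 at an unadjusted p under 0.05).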

How the data were processed

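The authors deposited expected counts per gene for 36 libraries, estimated with RSEM 1.2.15 and Bowtie2 2.1.0 on hg38, per the submitters' processing notes; the sources used here name neither the annotation nor the strand setting. Expected counts were rounded to whole numbers. In each experiment (9 libraries), genes with low counts were filtered by filterByExpr (edgeR 4.0.16, R 4.3.3), libraries were scaled by TMM, and edgeR's robust quasi-likelihood test was run on all genes with Benjamini-Hochberg adjustment. Differences between experiments were tested in fits of 18 libraries. Levels are TMM-scaled CPM. The tests were checked on simulated counts with the same change in both constructs and no length trend between libraries, so that check does not cover such trends. No replicates differed by as little as sampling noise: chi-square per degree of freedom between replicates ran from 3.50 to 188.

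The members and lists were chosen with earlier results of these data known. Values were given in full for up to 6 members per experiment that passed with both constructs, by the size of the smaller change and with at least 1 CPM on average, and for members with opposite calls; others were named within counts. Alternatives were RLE size factors, no filter, DESeq2 1.42.0, a replicate block, each construct alone, all 36 libraries in 1 fit, ribosomal RNA genes left out, the guide number from the genotype field, omission of each library and, chosen after seeing the data, transcript length slope (GENCODE lengths). The target of the constructs is not reported here.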

Additional observations from a re-analysis of the deposited data

Results flagged for a closer look

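Members whose effect differed between experiments, by the test of the difference itself (edgeR, Benjamini-Hochberg adjusted p under 0.05), are given as log2 differences. MDA-MB-468 minus WiDr hairpins differed for 8 members, among them BTG2 (-1.08), GADD45A (-0.96), TP53I3 (-0.75) and TP53INP1 (-0.94). PANC-1 minus WiDr hairpins differed for 15 members, among them BTG2 (-1.51), FAS (1.39), GADD45A (-1.64), GDF15 (1.21), PHLDA3 (1.46), PLK2 (-1.42), TP53I3 (-0.91) and TRIAP1 (-0.61). MDA-MB-468 minus PANC-1 differed for 10 members, among them AEN (0.39), GADD45A (0.77) and PLK2 (1.43). WiDr guides minus WiDr hairpins differed for 16 members, among them AEN (0.39), BTG2 (-0.74), GADD45A (-0.38), GDF15 (-0.37), PHLDA3 (1.02), TNFRSF10A (0.35), TP53I3 (-0.30), TP53INP1 (-0.87) and TRIAP1 (0.30). The counts of 8 and 10 include GDF15, which was too low to test in MDA-MB-468 and is given no value. With 3 libraries per group, no library was tested for standing apart from its group.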

How the results depend on the processing

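Of 303 recomputed counts of members over 16 results, 260 stayed within 1.5 times the reported count, and of 454 recomputed fold changes of single members over 40 results, 396 kept their direction and call, 54 kept only the direction and 4 reversed. The 4 were TNFRSF10A (-0.05 with guide 1 and 0.26 with guide 2) and TNFRSF10B (-0.01 and 0.34) with the guide number from the genotype field. By these values that grouping left 1 library under guide 2 and mixed both titles under guide 1, so its counts are not given singly. With all 36 libraries in 1 fit, 1 member fell in MDA-MB-468, 5 rose, 1 fell and 7 differed between hairpins in WiDr, 1 rose and 10 differed with guides, and 18 (MDA-MB-468 minus PANC-1) and 5 (guides minus hairpins) differed between experiments. DESeq2 called 1 falling in MDA-MB-468. No filter left 3 rising with guides. Each construct alone gave 3 rising and 3 falling in PANC-1 and 3 rising with guides. The length slope gave 2 rising, 4 falling and 7 differing between hairpins in MDA-MB-468, 11 rising and 8 falling in PANC-1, 8 differing between hairpins in WiDr and 1 rising with guides, and 14 (MDA-MB-468 minus WiDr) and 19 (MDA-MB-468 minus PANC-1) differing between experiments. The cause was not tested. Except for shared changes under the length slope, given above, these counts have no share of all genes beside them.

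Omitting each library in turn gave 0 to 0 members in every MDA-MB-468 count, 3 to 8 rising and 3 to 6 falling in PANC-1, 8 to 12 rising, 1 to 3 falling and 11 to 17 differing with WiDr hairpins, and 2 to 6 rising and 11 to 17 differing with guides. The differences between experiments ran from 7 to 10 (MDA-MB-468 minus WiDr), 14 to 18 (PANC-1 minus WiDr), 8 to 14 (MDA-MB-468 minus PANC-1) and 14 to 17 (guides minus hairpins). Single calls were lost in PANC-1 for BTG2 (without replicate 1 labelled hairpin 2, -0.74, adjusted p = 0.052), TRIAP1 (-0.50 with hairpin 1 at the smallest, adjusted p = 0.156) and AEN (hairpin 1 without its replicate 2, -0.33, adjusted p = 0.0555). AEN and TRIAP1 also lost calls in the libraries labelled hairpin 2. With guide 2 calls were lost for TP53I3, AEN, SESN2 and TNFRSF10A. With guide 1 the call of TNFRSF10A was lost (0.19 without guide 1 replicate 2, adjusted p = 0.16). With WiDr hairpin 1 that of TP53INP1 was lost (0.29 without control replicate 2, adjusted p = 0.0682).

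The replicate numbers were not taken to pair the libraries, since in no experiment did every same-numbered pair deviate together. Residual correlations of same-numbered libraries ran from -0.22 to 0.64 in MDA-MB-468, -0.67 to 0.13 in PANC-1, -0.15 to 0.07 with WiDr hairpins and -0.05 to 0.13 with guides, and those of other pairs from -0.62 to 0.55, -0.34 to 0.50, -0.11 to 0.14 and -0.13 to 0.07. With the replicate block, 4 members rose and 3 fell in PANC-1, where TRIAP1 (-0.62 and -0.71, adjusted p = 0.12 and 0.079) and AEN (-0.36 and -0.31, adjusted p = 0.0515 and 0.0696) lost their calls. The block left 0 calls in MDA-MB-468, 10 rising, 2 falling and 15 differing with WiDr hairpins, and 5 rising, 0 falling and 18 differing with guides. Differences between experiments were then 10, 14, 9 and 17, in the order above.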

Other observations

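EGFR, a gene with a long transcript that is not a member, varied widely within groups. It had 52.3, 156 and 156 CPM with PANC-1 hairpin 1 and 171, 158 and 174 CPM in the libraries labelled hairpin 2, against 189, 40.0 and 52.1 CPM in the controls, an order close to that of the length slopes. In MDA-MB-468 it had 1880, 1380 and 1070 CPM with hairpin 1 and 1050, 2080 and 582 CPM with hairpin 2, against 444, 1980 and 1080 CPM in the controls. PECAM1, an endothelial adhesion gene, was lower in MDA-MB-468, at 1.02, 1.12 and 1.24 CPM with hairpin 1 and 0.961, 0.988 and 0.689 CPM with hairpin 2, against 2.92, 2.40 and 3.10 CPM in the controls (edgeR log2 fold changes -1.32 and -1.67, adjusted p = 0.0105 and 0.00261). Both genes were singled out after their values were seen.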
